A study of Mus musculus with 6 samples.

Results

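Binding of OCT4 and NANOG was examined at 8 genes of the LIF and STAT3 pathway, *Lifr*, *Il6st*, *Jak1*, *Jak2*, *Stat3*, *Socs3*, *Pim1* and *Pim3*, as every region of the 6 deposited lists that lay within 20 kb of the annotated body of 1 of these genes. The rule found 12 of 23767 distinct regions, and these lay at 6 of the 8 genes. ChIP-Seq libraries were made from E-GFPd1 cells (Esrrb-2a-GFPd-IBIH in the labels), a clonal line of E14Tg2a mouse ESCs with a destabilised GFP joined to *Esrrb* through a T2a peptide, so that fluorescence follows *Esrrb* expression. Cells were grown in LIF/FCS, fixed and sorted by fluorescence into Esrrb-GFP high cells (the brightest 10%), Esrrb-GFP medium cells (the 15% just above the negative gate) and Esrrb-GFP negative cells, and each population was used with an antibody to OCT4 and with one to NANOG. LIF was therefore present in the medium of every population. The sorted-fraction label of the lowest population reads negative, whereas its source name reads low. Each factor and population had 1 library, from 3 pooled ChIPs, so no spread between replicates exists and no test between populations was possible.

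LIF binds a receptor made of LIFR and gp130, the product of *Il6st*. The receptor activates the kinases JAK1 and JAK2, which phosphorylate STAT3, and phosphorylated STAT3 enters the nucleus and activates its target genes. Among these targets are *Socs3*, whose product inhibits the receptor complex in a negative feedback, and *Pim1* and *Pim3*, which encode serine/threonine kinases. In mouse ESCs this pathway sustains self-renewal, and OCT4 and NANOG are transcription factors that act with it in the naïve pluripotency network.

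Here bound means that the list of that factor and population contained the region. The lists give position only. The authors had pooled the peaks into common regions and left a region out of each population where its depth-normalised signal was under 50% of its maximum, so an absence can be a weaker signal and not its lack. Binding in fewer cells and weaker binding per cell cannot be told apart. The sequencing depth behind each list is unknown. Intervals are 95% Wilson intervals for counting error alone, and several of the 12 regions lie side by side at 1 gene and are not independent of each other. OCT4 lists held between 10369 and 14464 regions and NANOG lists between 286 and 9425. Positions are on mm9, counted from 1, with genes from the GENCODE annotation of that assembly. The lists hold no expression values, so the labelled cell type was not checked against marker genes.

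The sequences of the 4 regions that both factors bound in Esrrb-GFP high cells are shown first, since these are the regions that the results turn on. Each is given 5′ to 3′ on the plus strand, as the whole region, as the bases within 100 bp of its centre where the region is narrower than that, or as its central 300 bases where it is wider. Capitals mark exact matches, on either strand, to the octamer bound by OCT4 (ATGCAAAT) or to the ESRRB motif (CAAGGTCA).
Lifr 13.7 kb upstream, chr15:7065712-7065931: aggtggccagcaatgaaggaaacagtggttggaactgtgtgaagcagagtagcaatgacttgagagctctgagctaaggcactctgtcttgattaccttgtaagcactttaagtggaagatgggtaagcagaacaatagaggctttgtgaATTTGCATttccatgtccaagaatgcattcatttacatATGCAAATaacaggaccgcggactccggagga
Lifr 12.6 kb upstream, chr15:7066832-7067051: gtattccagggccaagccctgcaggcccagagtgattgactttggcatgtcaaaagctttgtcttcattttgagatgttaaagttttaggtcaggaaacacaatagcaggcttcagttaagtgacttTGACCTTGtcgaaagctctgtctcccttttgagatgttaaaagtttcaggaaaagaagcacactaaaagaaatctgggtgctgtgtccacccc
Il6st 12.5 kb upstream, chr13:113252661-113252861: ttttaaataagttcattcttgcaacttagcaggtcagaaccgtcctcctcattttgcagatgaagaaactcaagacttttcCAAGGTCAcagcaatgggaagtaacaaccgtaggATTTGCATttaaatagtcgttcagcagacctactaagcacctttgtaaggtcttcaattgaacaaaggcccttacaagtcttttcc
Socs3 2.8 kb upstream, chr11:117834002-117834301: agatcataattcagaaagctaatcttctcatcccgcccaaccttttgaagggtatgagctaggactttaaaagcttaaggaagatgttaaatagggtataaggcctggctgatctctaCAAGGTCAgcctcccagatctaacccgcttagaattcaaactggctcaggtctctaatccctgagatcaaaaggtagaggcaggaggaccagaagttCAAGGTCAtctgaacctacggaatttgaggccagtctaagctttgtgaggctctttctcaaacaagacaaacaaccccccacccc

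A further pair of sequences was chosen after the values had been seen, as regions bound by OCT4 without NANOG that were kept (*Pim1*) or lost (*Pim3*) in Esrrb-GFP negative cells. Capitals mark the Oct-Sox core (TTGTNATGC, with N for any base) in the first and the KLF motif (GGGTGTGG) in the second, both read on the minus strand.
Pim1 3.7 kb downstream of the gene start, chr17:29631381-29631581: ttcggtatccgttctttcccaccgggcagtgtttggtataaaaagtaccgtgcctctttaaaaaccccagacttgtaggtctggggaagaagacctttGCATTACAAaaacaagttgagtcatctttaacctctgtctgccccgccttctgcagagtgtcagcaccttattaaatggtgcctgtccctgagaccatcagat
Pim3 5.5 kb downstream of the gene start, chr15:88697991-88698191: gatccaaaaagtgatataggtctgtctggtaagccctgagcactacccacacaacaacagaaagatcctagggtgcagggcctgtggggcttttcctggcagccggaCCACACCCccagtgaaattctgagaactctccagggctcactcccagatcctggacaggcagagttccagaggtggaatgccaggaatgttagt

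In Esrrb-GFP high cells OCT4 was bound at 8 of the 12 regions and NANOG at 7, and 4 regions carried both factors. In medium cells OCT4 was bound at 11 and NANOG at 6. In negative cells OCT4 was bound at 4 and NANOG at 0. Over all 23767 regions, OCT4 was bound at 12449 in high, 14464 in medium and 10369 in negative cells. NANOG was bound at 9425, 4729 and 286 of them, and both factors in high cells at 3675. NANOG was found at *Lifr*, *Il6st* and *Socs3*, which encode the receptor chains and the feedback inhibitor, and at no region of *Jak2*, *Pim1* or *Pim3*, where OCT4 alone was bound. At *Jak1* and *Stat3* neither factor was bound within 20 kb.

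**Figure D1:**
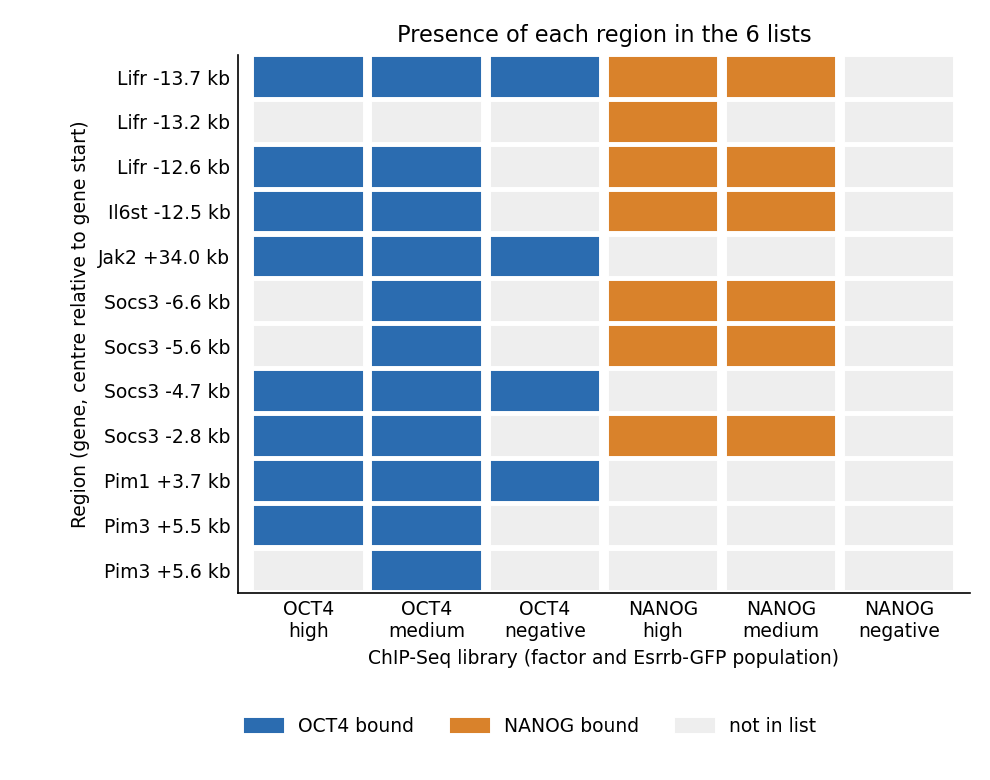
Presence of the 12 regions (rows, named by gene and by the distance of the region centre from the gene start in kb, negative upstream) in the 6 lists (columns, factor and Esrrb-GFP population). A coloured cell is a bound region and a grey cell a region that the list does not hold. NANOG fills 7 cells in high, 6 in medium and 0 in negative.

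Of the protein-coding genes of the annotation, 46.4% (10384 of 22380) had a region of some list within 20 kb, against 6 of the 8 pathway genes. OCT4 regions of high cells lay at 6 of the 8 genes (31.5% of all protein-coding genes), those of medium cells at 6 (36.2%) and those of negative cells at 4 (28.4%). NANOG regions lay at 3 of the 8 genes in high cells (23.3% of all protein-coding genes), at 3 in medium cells (14.6%) and at 0 in negative cells (0.961%). Regions with both factors in high cells lay at 3 of the 8 genes, *Lifr*, *Il6st* and *Socs3*, and at 11.1% of all protein-coding genes. The gene bodies of the 8 differ in length from 3535 bp (*Pim3*) to 112916 bp (*Jak1*), and a longer gene has a wider search window. The 8 windows together held 1.82 regions per 100 kb and the windows of all protein-coding genes 1.12. *Jak1*, the longest of the 8, had no region, whereas *Socs3*, with a body of 3969 bp, had 4.

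*Lifr* (ENSMUSG00000054263, plus strand, chr15:7079559-7147489) encodes the LIF receptor chain and had 3 regions, all upstream of the gene and none inside it. They lay within 1340 bp of each other, 12.6 to 13.7 kb before the gene start, between genes, with *Lifr* as the closest protein-coding gene. The region at chr15:7065712-7065931 held OCT4 in the 3 populations, with NANOG in high and medium cells. This is a Class II region in the study's terms, with OCT4 and NANOG in high cells and OCT4 alone in negative cells, and 813 regions of the series (3.42%) had the same status in the 6 lists. The region at chr15:7066832-7067051, of the same width (220 bp), was bound by both factors in high and medium cells and by neither in negative cells, which makes it a Class I region. Between them, chr15:7066352-7066391 was bound by NANOG in high cells only. It lay 420 and 440 bp from the regions on either side, and these outer regions differed in whether OCT4 was kept. This difference depends on keeping them apart. With regions within 500 bp merged, the 3 became 1 region, with OCT4 in the 3 populations and NANOG in high and medium cells, a Class II status.

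*Il6st* (ENSMUSG00000021756, plus strand, chr13:113265216-113297068) encodes gp130, the signalling chain that the LIF receptor shares with the receptors of related cytokines. Its only region, chr13:113252692-113252831, lay 12.5 kb upstream of the gene start, between genes. OCT4 and NANOG were both bound in high and in medium cells, and neither was in negative cells. It had the same status as the Class I region upstream of *Lifr* and lay at a similar distance from the gene start. A status of both factors in high and medium cells and neither in negative cells was found at 842 regions of the series (3.54%).

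Of the kinases that the receptor activates, *Jak2* (ENSMUSG00000024789, plus strand, chr19:29326318-29387570) had 1 region and *Jak1* (ENSMUSG00000028530, minus strand, chr4:100824972-100937887) had 0. The *Jak2* region, chr19:29360292-29360351, lay in an intron 34.0 kb downstream of the gene start and was bound by OCT4 in the 3 populations, never by NANOG. The region nearest to *Jak1* was 63745 bp upstream of the gene, chr4:101001632-101001771, and likewise held OCT4 in the 3 populations without NANOG. *Stat3* (ENSMUSG00000004040, minus strand, chr11:100746412-100800854), the transcription factor of the pathway, had no region either. The nearest one lay 20118 bp upstream of it, just outside the limit of 20 kb, in an intron of the neighbouring gene *Ptrf* at chr11:100820972-100821011. It was bound by OCT4 in high and negative cells and not in medium cells. The most distant region inside the limit was the *Lifr* region 13628 bp from the gene body.

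*Socs3* (ENSMUSG00000053113, minus strand, chr11:117827393-117831361), the feedback inhibitor, had the most regions of the 8 genes. Its 4 regions lay 2.8, 4.7, 5.6 and 6.6 kb upstream of the gene start within 4020 bp, between genes, and showed 3 different statuses. The region nearest to the gene, chr11:117833992-117834311, was bound by both factors in high and medium cells and by neither in negative cells (Class I). The region at chr11:117836072-117836111 held OCT4 in the 3 populations and no NANOG.

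The remaining regions upstream of *Socs3*, chr11:117836672-117837191 and chr11:117837832-117838011, were bound by NANOG in high and medium cells and by OCT4 in medium cells only. Of all regions of the series, 136 (0.572%) had this status. The first of them was the widest of the 12, with 520 bp, against a median of 80 bp over all regions (interquartile range 60 to 160 bp). GC content within 100 bp of the centre was 54.2% and 57.2% at these regions, and the median over all regions was 48.3% (interquartile range 44.3 to 51.7%). In negative cells, 1 of the 4 *Socs3* regions was bound, by OCT4.

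*Pim1* and *Pim3* encode related kinases and differed in OCT4 binding in negative cells. The *Pim1* region (gene ENSMUSG00000024014, plus strand, chr17:29627757-29632390), at chr17:29631432-29631531 in an intron 3.7 kb downstream of the gene start, was bound by OCT4 in the 3 populations. *Pim3* (ENSMUSG00000035828, plus strand, chr15:88692616-88696150) had 2 regions 20 bp apart beyond the 3′ end of the gene. The region at chr15:88697992-88698191 held OCT4 in high and medium cells but not in negative cells, and the region at chr15:88698212-88698251 was bound by OCT4 in medium cells only. NANOG was bound at none of the *Pim1* and *Pim3* regions. OCT4 in the 3 populations without NANOG, the status of the *Pim1*, *Jak2* and middle *Socs3* regions, was found at 4166 regions of the series (17.5%).

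**Figure D2:**
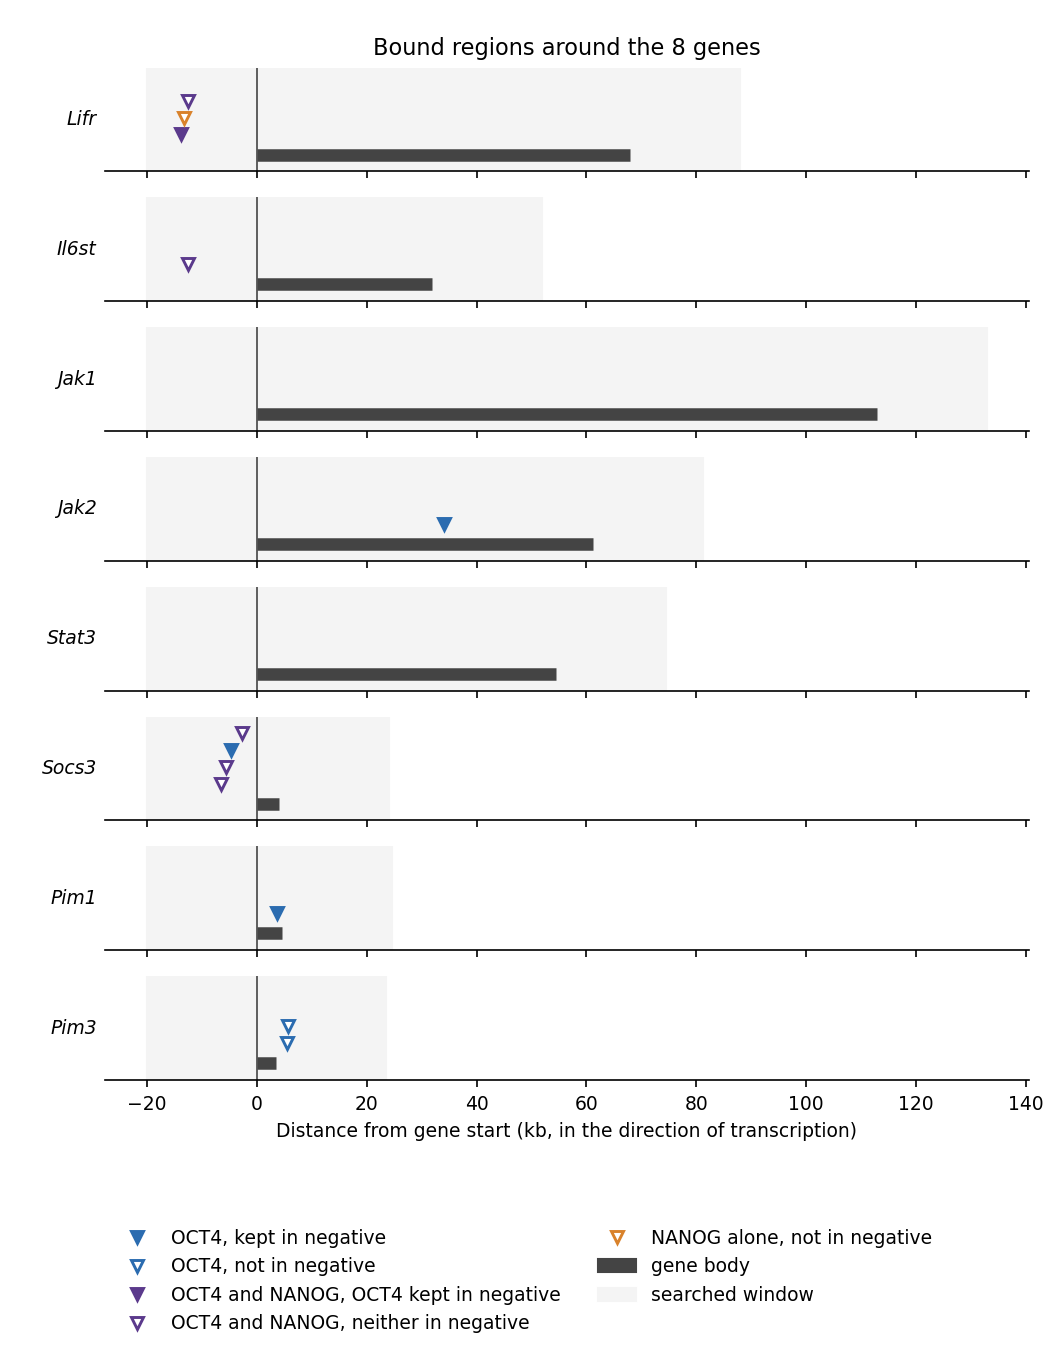
Position of each region (triangles, at the region centre and stacked for legibility) relative to the gene start, in kb along the direction of transcription, for the 8 genes. Dark bars are gene bodies, pale bands are the searched windows, colours give the factors bound in any population, and filled triangles are regions that OCT4 still bound in negative cells. The regions of *Lifr*, *Il6st* and *Socs3* are all upstream, and *Jak1* and *Stat3* have none.

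Of the 8 regions bound by OCT4 in high cells, 4 were lost in negative cells, 50% (95% interval 21.5 to 78.5), and over all OCT4 regions of high cells 45.1% were lost. The 4 lost regions were those of *Il6st* and *Pim3*, the Class I region of *Lifr* and the Class I region of *Socs3*. Kept were the Class II region of *Lifr* and the regions of *Jak2*, *Pim1* and, 4.7 kb upstream, *Socs3*. The share lost near the pathway genes was thus close to that over all regions.

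OCT4 was kept from high to medium cells at all 8 regions, a loss of 0 of 8 (0 to 32.4%), against 21.3% lost over all regions. All 4 regions lost in negative cells were still bound in medium cells, which held for 72.6% of the lost OCT4 regions of the series. In medium cells OCT4 was bound at 3 regions that were not bound in high cells, 2 upstream of *Socs3* and 1 downstream of *Pim3*, or 27.3% of the 11 (9.75 to 56.6), against 32.3% over all regions. None of these 3 was bound in negative cells. From medium to negative cells OCT4 was lost at 7 of 11 regions, 63.6% (35.4 to 84.8), against 44.1% over all regions. In negative cells, 0 of the 4 OCT4 regions was gained relative to high cells (0 to 49.0%), against 34.1% over all regions. The loss of 0 of 8 from high to medium cells holds within 20 kb only. Between 20 and 50 kb, regions near *Il6st*, *Stat3* and *Pim1* were bound by OCT4 in high and not in medium cells. Others near *Il6st*, *Socs3*, *Pim1* and *Pim3* kept OCT4 in medium cells.

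NANOG was lost in negative cells at 7 of 7 regions (64.6 to 100%), and 97.5% of all NANOG regions of high cells were lost. In medium cells NANOG was lost at 1 of the 7, the 40 bp region of *Lifr* that NANOG bound alone, 14.3% (2.57 to 51.3). Over all NANOG regions of high cells, 52.3% were lost in medium cells. NANOG was therefore still bound in medium cells at all 3 genes that carried it in high cells, and the list of negative cells held none of its regions there. These 7 regions come from 3 loci, and the interval treats them as separate counts.

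NANOG was bound at 4 of the 8 OCT4 regions in high cells, against 29.5% over the series. OCT4 was bound at 4 of the 7 NANOG regions in high cells, 57.1% (25.0 to 84.2), against 39.0% over the series. In medium cells OCT4 was bound at 6 of the 6 NANOG regions (61.0 to 100%), against 42.2% over the series. Here too the regions come from 3 loci. Of the 4 regions with both factors in high cells, 3 were Class I and 1 was Class II. Over the series 55.3% of such regions were Class I and 42.6% were Class II, and with 4 regions the intervals for the pathway genes are wide (30.1 to 95.4% for Class I and 4.56 to 69.9% for Class II). The count of Class I regions fell to 1 within 10 kb of the genes, since the regions of *Lifr* and *Il6st* lie farther away. With regions within 500 bp merged, 2 of 3 regions with both factors in high cells were Class I.

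**Figure D3:**
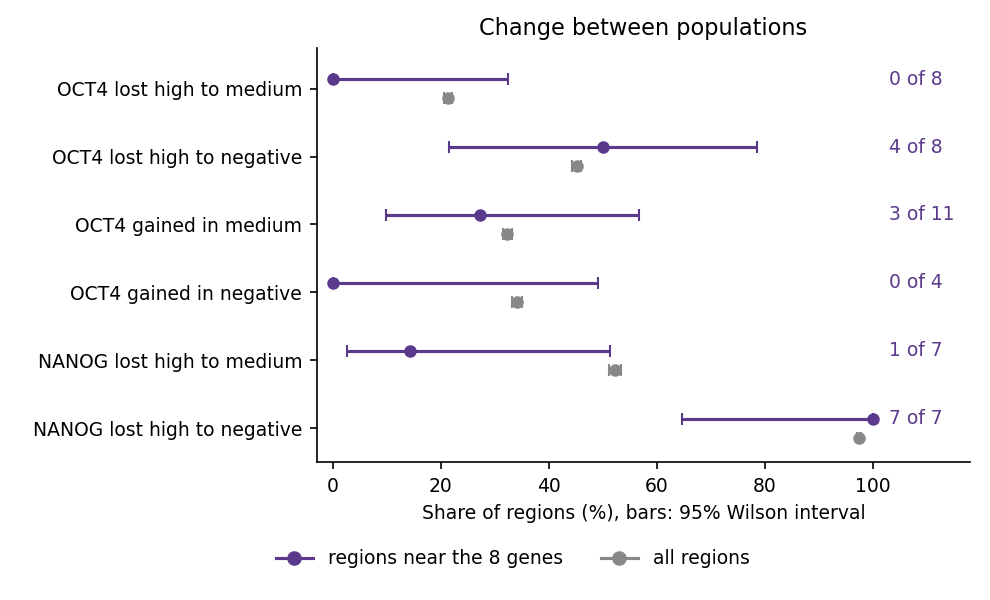
Share of regions lost or gained between populations (x axis, %) for the regions near the 8 genes (purple, with the count at the right) and for all regions of the series (grey). Bars are 95% Wilson intervals. The purple interval for NANOG lost in negative cells runs from 64.6 to 100%, and that for OCT4 lost in negative cells, from 21.5 to 78.5%, spans the value over all regions.

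None of the 12 regions had its centre within 1 kb of an annotated transcription start site (0 to 24.2%), a position that 8.90% of all regions had. The distances to the nearest start site ran from 2611 bp (*Pim1*, to the overlapping gene *Gm16912*) to 34003 bp (*Jak2*), with a median of 6065 bp against 16099 bp over all regions, although the rule itself selects regions near genes. Of the 12, 8 had another region within 1 kb, 66.7% (39.1 to 86.2), against 22.8% over all regions. These were the 3 regions of *Lifr*, the 3 regions farthest upstream of *Socs3* and the 2 of *Pim3*. The regions had a median width of 160 bp and ranged from 40 to 520 bp. Widths are those of peaks merged over all datasets.

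Exact matches to 5 motifs were searched on both strands within 100 bp of each region centre. The ESRRB motif CAAGGTCA, part of the site that the orphan nuclear receptor ESRRB recognises, was present at 4 of the 12 regions, 33.3% (13.8 to 60.9), and at 3.98% of all regions. The 4 were the Class I regions of *Lifr*, *Il6st* and *Socs3* and the *Lifr* region bound by NANOG alone. All 4 were NANOG regions of high cells, of which the series as a whole had the motif at 6.30%. The *Socs3* region had 2 matches, as its sequence above shows, and the match at the *Lifr* region of NANOG alone lay at the edge of this 40 bp region, overlapping it by 1 base. Over the series the motif was present at 8.75% of Class I regions, against 3.0% of those in Class II, and here at 3 of 3 Class I regions (43.9 to 100%) and not at the Class II region of *Lifr*. The paper had already reported ESRRB motifs as enriched at the Class I peaks of these data, and the 3 regions are among those peaks. The contrast between the classes is therefore not independent of that report. Binding of ESRRB was not measured in these libraries.

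With their 4 neighbouring bases on either side, read along the motif strand, the ESRRB matches were as follows, the match in capitals.
Lifr 12.6 kb upstream: tcgaCAAGGTCAaagt
Lifr 13.2 kb upstream: aaaaCAAGGTCAccaa
Il6st 12.5 kb upstream: tttcCAAGGTCAcagc
Socs3 2.8 kb upstream, match nearer to the gene: tctaCAAGGTCAgcct
Socs3 2.8 kb upstream, match farther from the gene: agttCAAGGTCAtctg

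The octamer ATGCAAAT was present at 2 of the 12 regions, 16.7% (4.70 to 44.8), and at 7.88% of all regions. It occurred 2 times in the Class II region of *Lifr*, 44.5 and 82.5 bp from the centre on opposite strands, and 1 time in the *Il6st* region, where the ESRRB match lay on the other side of the centre. The *Il6st* region was the only one of the 12 with matches to more than 1 of the 5 motifs. The Oct-Sox core TTGTNATGC, whose last 4 letters are also the first 4 of the octamer, was found at the *Pim1* region, 2 bp from its centre, and at 7.36% of all regions. Of the 4 regions at which OCT4 was kept in negative cells, the Class II region of *Lifr* and the *Pim1* region had an octamer or an Oct-Sox core, and those of *Jak2* and *Socs3* had neither. Of the 4 at which OCT4 was lost, the *Il6st* region had an octamer, and those of *Lifr*, *Socs3* and *Pim3* had neither. The share with either motif over all kept or lost OCT4 regions was not computed.

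The KLF motif GGGTGTGG was found at the wider *Pim3* region and at 2.96% of all regions. The STAT motif TTCCNGGAA, a palindrome recognised by STAT dimers, was found at 0 of the 12 regions (0 to 24.2%) and at 0.795% of all regions. In the looser form TTCNNNGAA, which contains the stricter one and was added after the data had been seen, it was found at 1 of the 12, the wider *Pim3* region, and at 6.24% of all regions. Binding of STAT3 was not measured, and no match says only that these letters are not within 100 bp of the centre. Wide regions, such as the 520 bp region upstream of *Socs3*, were not searched to their ends.

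**Figure D4:**
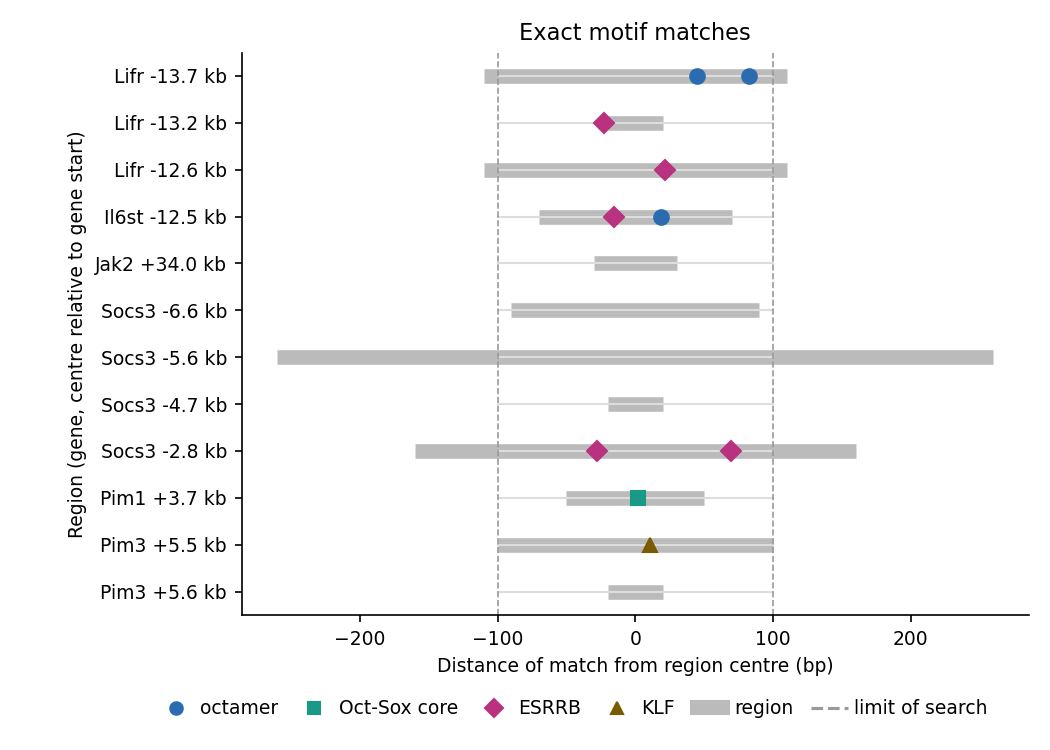
Exact motif matches (symbols) within 100 bp of the centre of each of the 12 regions, with the distance from the region centre in bp on the x axis. Grey bars show the extent of each region and dashed lines the limits of the search. ESRRB matches lie at 4 regions, of *Lifr*, *Il6st* and *Socs3*, and octamer matches in 2.

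Beyond the 8 genes, 34 other genes of the pathway (cytokines, receptors, JAK and STAT family members, inhibitors and targets) were examined in the same way. Of these, 23 had a region within 20 kb, against 46.4% of all protein-coding genes, and 59 distinct regions were found, 7 of which counted for 2 genes. With each region given to its closest protein-coding gene only, 19 of the 34 had one. OCT4 was lost from high to negative cells at 11 of 25 regions, 44.0% (26.7 to 62.9), against 45.1% over all regions. NANOG was lost at 14 of 14 (78.5 to 100%), against 97.5%. OCT4 was gained in negative cells at 12 of 26 regions, 46.2% (28.8 to 64.5), against 34.1%. Both factors were bound in high cells at 5 regions, and all 5 were Class I (56.6 to 100%), against 55.3% over the series.

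These 5 regions lay at *Lif*, *Mras*, *Myc*, *Pim2* and *Pramel7*. The region of *Lif*, which encodes the cytokine itself, was chr11:4146312-4146491, 11159 bp upstream of the gene start, and it is also within 20 kb of *Osm*, which encodes the related cytokine oncostatin M. It lay 5283 bp from the body of *Osm* and 11069 bp from that of *Lif*, so *Osm* was the closer gene. It was bound by both factors in high and medium cells and by neither in negative cells, the status of the *Il6st* region. The regions of *Pim2*, the kinase gene related to *Pim1* and *Pim3* (chrX:7447212-7447251), and of *Pramel7*, a STAT3 target of ESCs (chr2:87355972-87356131), had that status as well. The *Pim2* region lay 8137 bp from the gene body, in an intron of another gene. At *Myc*, a target of STAT3 that encodes a transcription factor, chr15:61810552-61810711 held both factors in high cells and NANOG alone in medium cells. At *Mras*, which encodes a small GTPase, chr9:99320492-99321011 held both factors in high cells and OCT4 alone in medium cells.

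NANOG was bound at none of the other receptor genes examined, and its regions of high cells lay at 23.3% of all protein-coding genes. Of the 23 other pathway genes with a region, of any kind, 12 had OCT4 and no NANOG in any list. The share of all protein-coding genes with this status was not computed, so the count cannot be called particular to the pathway. *Osmr*, *Cntfr* and *Il11ra1*, whose products signal together with gp130, had 1, 3 and 2 regions, those of *Il11ra1* being among those of *Cntfr*, and all of them were bound by OCT4 in the 3 populations and never by NANOG. *Il6ra* had no region. Of the other JAK family genes, *Jak3* had 2 regions bound by OCT4 in the 3 populations and *Tyk2* had 1 bound by NANOG in high and medium cells. *Stat5a*, like *Stat3*, had no region, and *Socs1* had none either. At *Gbx2*, a STAT3 target that encodes a homeobox factor, OCT4 was bound at 1 region in high, 1 in medium and 3 in negative cells, without NANOG. NANOG was bound in negative cells near 1 of the 34 genes, *Mras*, at 2 regions that overlapped annotated exons and that OCT4 did not bind in any population, chr9:99294972-99295011 and chr9:99311832-99311871.

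**Figure D5:**
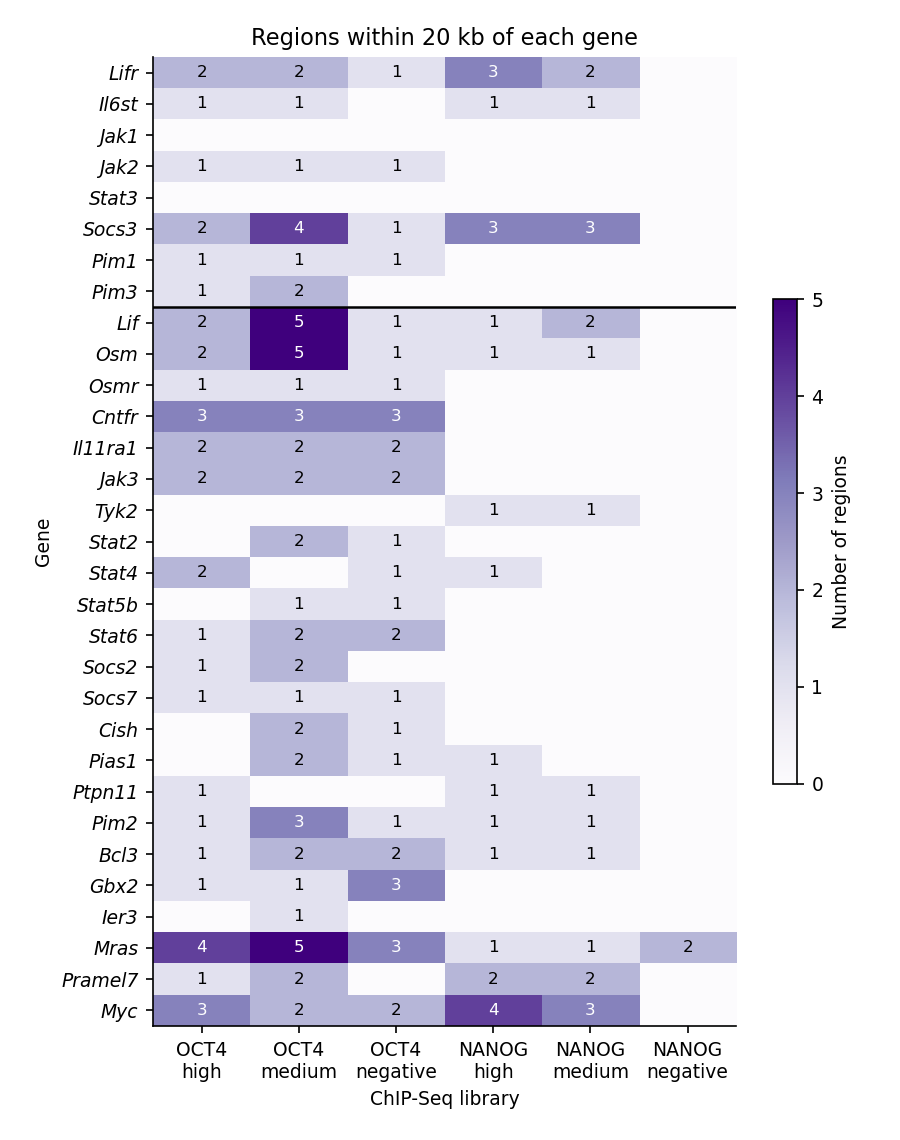
Number of regions within 20 kb of each gene (rows) in the 6 lists (columns), for the 8 genes above the line and, below it, the 23 other pathway genes with at least 1 region. Colour and digits give the count, and an empty cell is 0. *Mras* is the only gene with NANOG regions in negative cells, and *Lifr*, with 3, 2 and 0 NANOG regions, and *Socs3*, with 3, 3 and 0, carry the most NANOG regions of the 8.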

How the data were processed

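OCT4 and NANOG ChIP-Seq of 3 sorted E-GFPd1 populations was used, with 1 library per factor and population, grouped by the sample titles. Per the labels and the paper's methods, the authors aligned reads (Bowtie, mm9) and used SISSRs within GeneProf to call peaks, which were merged across datasets where they overlapped; a region was taken as lost below 50% of its highest depth-normalised signal. The deposited lists hold chromosome, start and end, with no score, signal or read count. Starts were converted from BED to 1-based positions.

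Regions overlapping by 1 bp were merged. Genes came from the GENCODE annotation of NCBIM37, the same assembly as mm9 (37310 genes, 22380 protein-coding), and bound regions were assigned within 20 kb of the gene body. Sequence was read from that genome. Intervals are 95% Wilson intervals. Named were all 8 member genes and, of the other pathway genes, those with a region co-bound in high; *Osmr*, *Cntfr*, *Il11ra1*, *Il6ra*, *Jak3*, *Tyk2*, *Stat5a*, *Socs1* and *Gbx2* were named after their values were seen. The pathway targets *Klf4*, *Klf5* and *Tcfcp2l1* were not on the list of other pathway genes. The members and lists were chosen with earlier results of these data known.

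Python 3.11.15, numpy 2.4.6, scipy 1.17.1, pysam 0.24.0, samtools 1.23.1 and matplotlib 3.10.9 were used. The functions were tested on simulated data and recovered all 8 kinds of known answer. Alternatives were other distances, the closest gene only, distance to a transcription start site, merging within 500 bp, wide regions only and other motif windows. Microarray, PCR and flow cytometry data were not analysed here.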

Additional observations from a re-analysis of the deposited data

How the results depend on the processing

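No paired analysis was possible because the 6 libraries are 6 different conditions. Of 56 values recomputed under the alternatives, 50 stayed within 1.5 times the count or within the interval of the share first given, and 6 moved. Within 10 kb of the genes, 1 Class I and 0 Class II regions remained, and within 50 kb there were 27 regions, of which 3 were Class II. With windows of 250 bp the KLF motif was found at 2 regions, which are the neighbouring *Pim3* regions and share 1 match. With the looser STAT motif, added after the data had been seen, 1 region had a match within 100 bp, and within 250 bp 4 of 12 had one (33.3%, against 15.7% of all regions), of which both *Pim3* regions share 1 match. The loss of all NANOG regions in negative cells held under each distance, merging and width alternative, and the share of OCT4 regions lost ran from 40% (within 10 kb) to 66.7% (wide regions only). Depth is unknown, each condition has 1 library, and 12 regions from 6 loci leave wide intervals.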

Other observations

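Between 20 and 50 kb from the 8 genes lay 15 further regions, 6 of them upstream of *Pim1*. All 6 were bound by OCT4 in Esrrb-GFP negative cells, as were 10369 of the 23767 regions of the series. These 6 neighbours at the same gene are not independent of each other and were singled out after the values had been seen. Of the 6, 2 had both factors in high cells, and these 2 were Class II regions. Of all regions with both factors in high cells, 42.6% were Class II. The 2 Class II regions lay at chr17:29604532-29604611, 23146 bp from the gene body in an intron of *Gm16912*, and at chr17:29588112-29588671, 39086 bp from it. At both, OCT4 was bound in the 3 populations and NANOG in high and medium cells. *Pim1*, which had no NANOG region within 20 kb, thus had 2 in high cells within 50 kb. Another 2 of the 6, at chr17:29601072-29601291 and chr17:29601312-29601351, held OCT4 in medium and negative cells but not in high cells.

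Upstream of *Il6st*, 3 regions lay 34065 to 35625 bp from the gene body. The closest of them, chr13:113230912-113231151, held both factors in high cells, NANOG alone in medium cells and neither in negative cells. The farthest, chr13:113229432-113229591, held OCT4 in medium and negative cells only. Upstream of *Lifr*, 2 regions 47368 and 47508 bp from the gene body were bound by NANOG alone. Around *Jak1* no region lay within 50 kb, and *Jak2* gained none beyond its intronic region.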
